A study of Mus musculus with 2 samples.

Results

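Cholesterol synthesis, uptake and efflux are carried out and controlled here by 31 named genes, whose RNA was read in 2 skin tumour samples. They were found as the non-control array probes that carry one of these gene symbols, with Msmo1 also allowed under its older name Sc4mol. Of the 31, 30 had probes, out of 37321 gene names on the array, and 62 probes stood for them. Acat2 had no probe under its own name.

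The tumours came from male P2ry6-/- mice (1 sample) and male P2ry6+/+ mice (1 sample). P2ry6 encodes a G protein-coupled receptor for the nucleotide UDP. Mice of both genotypes were 2 months old when ultraviolet B (UVB) irradiation of the shaved back began, at 180 mJ/cm2 for 10 weeks, after which each week added 10 mJ/cm2 until 300 mJ/cm2 was reached at week 22 and held to week 40. How P2ry6 was inactivated, the strain, and the number of animals or tumours behind each RNA sample are not stated in the labels. Each sample was read on 1 single-colour array, so there is no biological replicate, no test was made, and every difference below is a description of these 2 arrays.

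Both arrays had about the same share of spots well above background (57.9% knockout-labelled, 57.8% wild-type-labelled), and 0 spots were saturated. The check of the deleted gene went against the label. The 2 probes of P2ry6 read 835 and 318 signal units on the knockout-labelled array, against 364 and 137 on the wild-type-labelled array, which is 2.44-fold higher on the array labelled as the knockout. As a log2 difference (knockout-labelled minus wild-type-labelled) this is 1.29, and it ranged from 0.77 to 1.32 over the settings used below. The deleted stretch of the gene is not stated, so a probe outside it would check nothing. Samples are therefore called by their labels, and each direction below rests on those labels.

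Cells build cholesterol from acetyl-CoA through the mevalonate pathway: isoprenoid units are joined to squalene, squalene is closed into lanosterol, and lanosterol is trimmed and reduced to cholesterol. When the endoplasmic reticulum is poor in sterol, the transcription factor SREBP2 (gene Srebf2) is escorted by Scap to the Golgi, cut, and sent to the nucleus, where it switches on the synthesis enzymes together with the promoter factors NF-Y and Sp1, while the Insig proteins hold Scap back when sterol is plentiful. When sterol is in excess, oxysterols activate the liver X receptors (LXR), which switch on the efflux pumps Abca1 and Abcg1. In skin, keratinocytes make cholesterol for the permeability barrier and sebaceous glands make sterol and other lipids for sebum.

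The enzymes of cholesterol synthesis were lower as a group on the knockout-labelled array, while the genes of sterol sensing and efflux were split or inside 2-fold. A probe's level is its log2 signal relative to the 75th percentile of that array. A gene's level averages the probes measured for it, and a gene was counted as lower or higher where the arrays differed by at least 2-fold (1 log2 unit). All 30 members could be measured. Of these, 16 (53.3%) were lower by 2-fold or more, 0 were higher by as much and 14 lay between. The same threshold was passed downward by 5.04% and upward by 4.82% of the 19873 genes measured on both arrays. The median log2 difference (knockout-labelled minus wild-type-labelled) came to −1.03 over the members and −0.06 over all genes, whose 5th and 95th percentiles were −1.0 and 0.98.

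**Figure D1:**
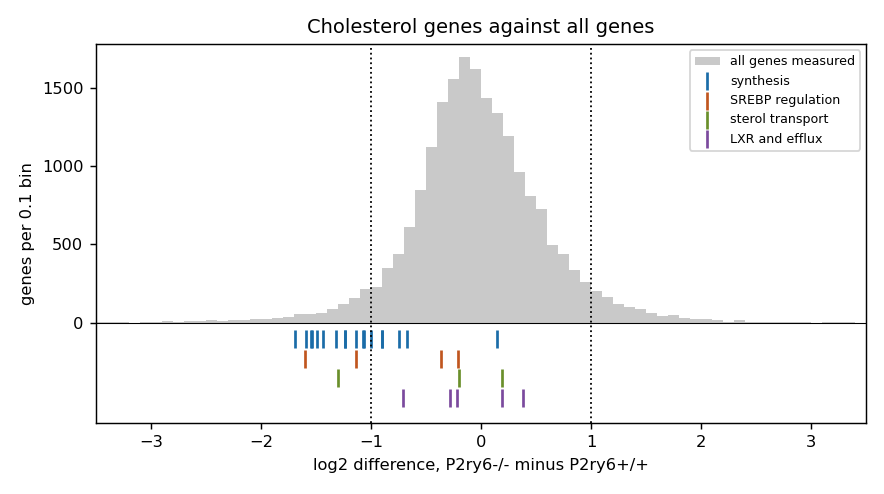
Histogram of the log2 difference between the arrays, P2ry6-/- minus P2ry6+/+, for all genes measured on both (grey, genes per bin of 0.1; 33 genes beyond 3.5 in size are not drawn), with each member as a tick below it in 4 rows by role and dotted lines at 2-fold. The synthesis ticks, except that of Ggps1, lie between −1.69 and −0.67, and no member lies past the upper 2-fold line.

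Most of the lower members were synthesis enzymes. Among 18 measured synthesis enzymes, 13 (72.2%) were lower by 2-fold or more, 0 were higher by as much and 5 lay between, and their median was −1.18. The lower count was 9 of 18 under quantile normalization, 10 under loess and 12 under normexp correction. With the authors' deposited values or the brightest probe it was 11, and on the spike-in scale 17. Among the other 12 members, 3 (25%) were lower by 2-fold or more, 0 were higher by as much and 9 lay between, and their median was −0.26. Outside Ggps1, all 17 synthesis enzymes were below 0, and so were all 32 of their measured probes. The technical error that could be measured was an SD of 0.12 log2 units for the difference of a single spot (292 probes with replicate spots) and 0.38 between probes of one gene (6731 genes). The spread between mice or tumours of one genotype could not be measured.

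**Figure D2:**
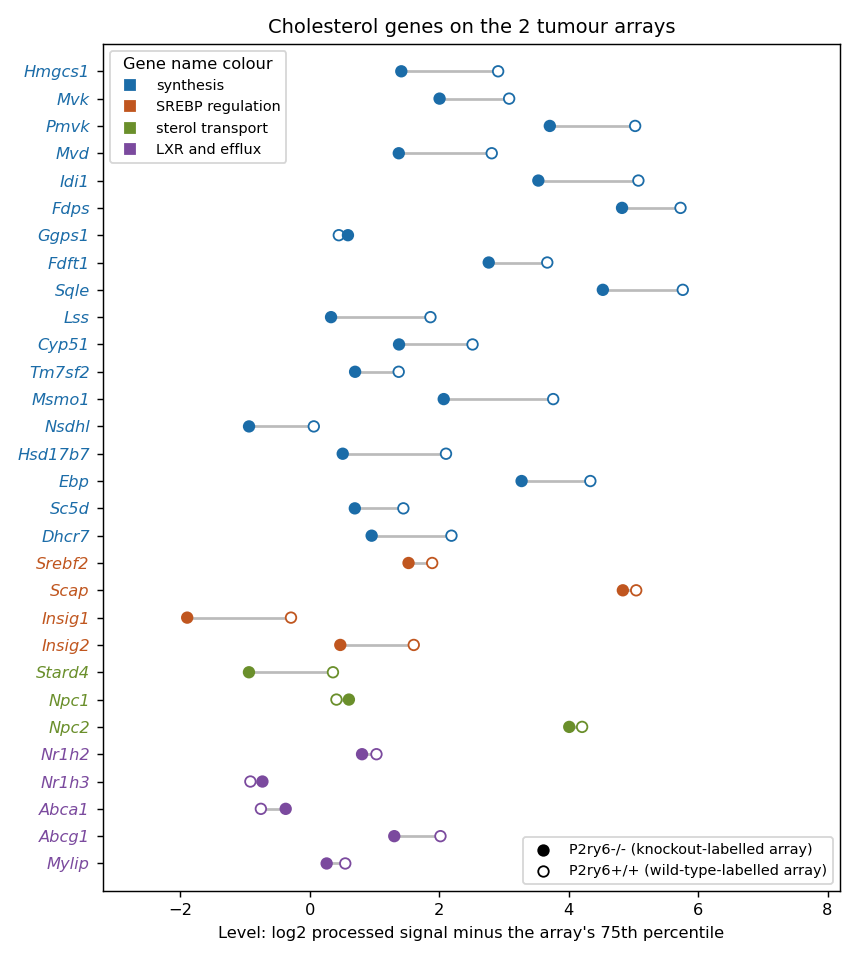
Level of each member (log2 signal relative to the 75th percentile of its array, mean of measured probes) on the P2ry6-/- array (filled) and the P2ry6+/+ array (open), joined by a line and coloured by role. The filled point lies left of the open one for 26 of 30 members, the exceptions being Ggps1, Npc1, Nr1h3 and Abca1.

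The first enzymes of the pathway, from acetyl-CoA to farnesyl diphosphate, were lower at every measured step. Of 6 genes 5 were at least 2-fold lower, with a median of −1.38. The count was 4 under quantile normalization, loess, the authors' deposited values and the brightest probe, and 6 on the spike-in scale. Hmgcs1, the synthase that makes HMG-CoA, had 2 probes that read 11167 and 68.1 signal units on the knockout-labelled array, against 29947 and 227 on the wild-type-labelled array. Its level was 1.42 on the knockout-labelled array and 2.91 on the wild-type-labelled array, a log2 difference of −1.5 ± 0.22 (SD, n = 2 probes), which is 2.82-fold lower, with both probes lower. Mvk, the kinase that first phosphorylates mevalonate, had probe signals of 5745 and 300.5 on the knockout-labelled array, against 12032 and 716 on the wild-type-labelled array, 2.11-fold lower. Pmvk, which adds the next phosphate, read 2954 and 6193 on the knockout-labelled array, against 8474 and 15108 on the wild-type-labelled array, 2.49-fold lower. Both kinases were thus lower with each of their probes.

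Mvd, the decarboxylase that yields isopentenyl diphosphate, read 849 units on the knockout-labelled array and 2436 on the wild-type-labelled array, 2.71-fold lower. Idi1, the isomerase that makes its reactive partner dimethylallyl diphosphate, read 3783 on the knockout-labelled array and 11715 on the wild-type-labelled array, 2.92-fold lower. Fdps, which joins these units to farnesyl diphosphate, was bright on both arrays, at 9269 (knockout-labelled) and 18393 (wild-type-labelled). Its difference of −0.90 (1.87-fold) stayed inside the 2-fold line on the main scale and was −1.42 on a spike-in scale. Each of these 3 genes was measured by 1 probe, that of Idi1 at chr13:8891524-8891583 (mm9, plus strand).

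The side branch did not share this difference. Ggps1 makes geranylgeranyl diphosphate for protein prenylation and is the one synthesis member that is not on the route to sterol. Its 6 probes read 274 to 1471 units on the knockout-labelled array, against 310 to 1369 on the wild-type-labelled array, and differed by 0.14 ± 0.18 (SD, n = 6 probes), or −0.38 on a spike-in scale. The probes lay on both sides of 0, 4 above and 2 below.

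From squalene to cholesterol, 8 of 11 genes were at least 2-fold lower, with a median of −1.14, and the other 3 were lower by less. On the spike-in scale all 11 were at least 2-fold lower, but only 5 were under quantile normalization and 6 under loess. The count was 7 under normexp correction, with the authors' deposited values and with the brightest probe. Fdft1, the squalene synthase that commits farnesyl diphosphate to sterol, read 1095 and 4519 on the knockout-labelled array, against 2348 and 8303 on the wild-type-labelled array, a log2 difference of −0.90 ± 0.16 (SD, n = 2 probes). Sqle, the epoxidase that adds the first oxygen, read 7547 on the knockout-labelled array and 18845 on the wild-type-labelled array, 2.35-fold lower, and was at −0.98 under quantile normalization. A second Sqle probe read 5.68 units on the knockout-labelled array, not well above background, and 25.8 on the wild-type-labelled array, and was left out. Lss, which folds squalene epoxide into lanosterol, had 3 probes with nearly equal differences, which read 289, 172 and 1394 on the knockout-labelled array, against 918, 514 and 4279 on the wild-type-labelled array, a log2 difference of −1.54 ± 0.05 (SD, n = 3 probes).

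The enzymes that trim the methyl groups of lanosterol were lower with every measured probe. Cyp51, the demethylase that is the target of azole inhibitors in fungi, read 2673 and 271 on the knockout-labelled array, against 6934 and 568 on the wild-type-labelled array, 2.20-fold lower. Msmo1, the methyl sterol oxidase, had the lowest difference of the 30 members on the main scale, although Insig1 was lower under quantile normalization (−1.64 for Insig1, −1.54 for Msmo1), loess (−1.64 and −1.55) and the authors' values (−1.65 and −1.59). Its brightest probe lies at chr8:67196982-67197041 (mm9, minus strand). The 3 probes read 7764, 1770 and 189 on the knockout-labelled array, against 28123, 7304 and 507 on the wild-type-labelled array, which gave −1.69 ± 0.32 (SD, n = 3 probes) and a 3.23-fold lower signal. Tm7sf2, a sterol C14 reductase whose step can also be done by Lbr, differed least among these enzymes outside Ggps1, with 205 and 1379 on the knockout-labelled array, against 354 and 2283 on the wild-type-labelled array, a log2 difference of −0.67 ± 0.04 (SD, n = 2 probes).

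Nsdhl, the decarboxylating dehydrogenase that acts after Msmo1, read 126 and 232 units on the knockout-labelled array, against 246 and 535 on the wild-type-labelled array. Its difference of −1.0 ± 0.17 (SD, n = 2 probes) sat on the threshold, just past it on the main scale. Hsd17b7, the ketosteroid reductase that completes this cycle, read 4646, 755 and 28.8 on the knockout-labelled array, against 12766, 2033 and 128 on the wild-type-labelled array, 3.02-fold lower. The dimmest of its 3 probes differed most, and the SD between probes was 0.41.

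The genes of the final steps were lower too, by different sizes. Ebp, the isomerase that shifts the ring double bond, read 12858 and 778 on the knockout-labelled array, against 24853 and 1973 on the wild-type-labelled array, 2.09-fold lower. Sc5d, the desaturase that makes 7-dehydrocholesterol, the skin precursor of vitamin D, read 1870 and 150 on the knockout-labelled array, against 3660 and 244 on the wild-type-labelled array. Its log2 difference of −0.75 ± 0.19 (SD, n = 2 probes) stayed inside 2-fold on the main scale and was −1.27 on the spike-in scale. Dhcr7, the reductase that turns that precursor into cholesterol, read 635 on the knockout-labelled array and 1583 on the wild-type-labelled array, 2.35-fold lower.

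**Figure D3:**
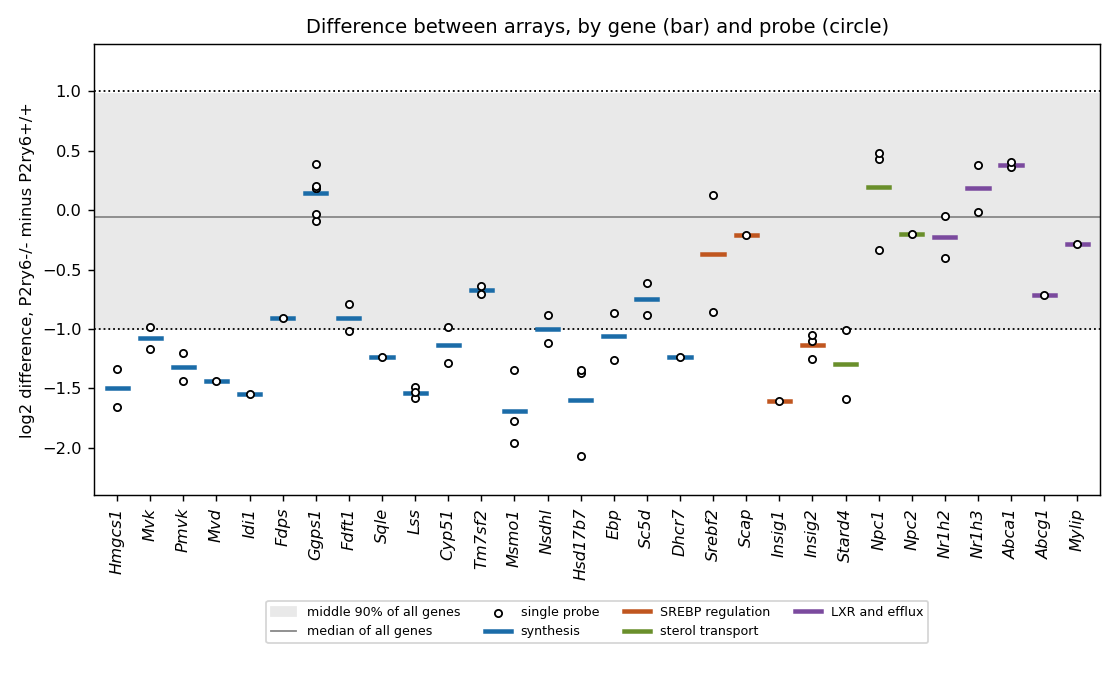
Log2 difference, P2ry6-/- minus P2ry6+/+, of each member (coloured bar, mean of measured probes) and of each measured probe (circle), with 2-fold dotted lines, the 5th to 95th percentile of all genes shaded and their median as a grey line. All 32 synthesis probes outside Ggps1 lie below 0, while the probes of Ggps1, Srebf2, Npc1 and Nr1h3 lie on both sides.

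Acat2, the cytosolic thiolase that supplies acetoacetyl-CoA, could not be separated from a relative. A probe named Acat3 lists accessions of both Acat3 and Acat2, and it read 245 on the knockout-labelled array and 482 on the wild-type-labelled array, a difference of −0.89. It was not counted as a member.

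Among the regulators, the sensors differed and the factor and its escort did not pass 2-fold. Insig1, an anchor of Scap whose own gene is an SREBP target, read 88.1 units on the knockout-labelled array and 284 on the wild-type-labelled array, 3.04-fold lower, from 1 probe at chr5:28404246-28404305 (mm9, plus strand). Insig2, its relative, read 247, 514 and 738 on the knockout-labelled array, against 625, 1130 and 1674 on the wild-type-labelled array, a log2 difference of −1.13 ± 0.11 (SD, n = 3 probes). Scap read 9351 on the knockout-labelled array and 11443 on the wild-type-labelled array, a difference of −0.21 that turned to 0.046 under quantile normalization, 0.011 under loess and 0.045 with the authors' deposited values.

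The 2 probes of Srebf2 disagreed. One read 1011 on the knockout-labelled array and 1941 on the wild-type-labelled array, a probe difference of −0.86, and the other read 879 on the knockout-labelled array and 854 on the wild-type-labelled array, a probe difference of 0.13. The gene value of −0.37 ± 0.69 (SD, n = 2 probes) is the mean of these. These values are RNA levels, and the cutting of SREBP2 that sets its activity was not measured.

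Of the transport members, 1 of 3 passed the threshold, and 0 of 3 under normexp correction, where Stard4 was at −0.85. Stard4, a soluble carrier of cholesterol between membranes and an SREBP target, read 727 and 40.1 on the knockout-labelled array, against 1548 and 128 on the wild-type-labelled array, a log2 difference of −1.30 ± 0.41 (SD, n = 2 probes), which is 2.46-fold lower. Npc1, the lysosomal membrane protein that exports cholesterol taken up with lipoproteins, had 3 measured probes that read 1720, 395 and 182 on the knockout-labelled array, against 2303, 310 and 138 on the wild-type-labelled array, so that the brightest probe and the others lay on opposite sides of 0. Its gene difference of 0.19 ± 0.46 (SD, n = 3 probes) became −0.32 on the spike-in scale and −0.34 with the brightest probe alone. Npc2, its soluble partner in the lysosome, read 5267 on the knockout-labelled array and 6412 on the wild-type-labelled array, a difference of −0.20 that turned to 0.048 under quantile normalization and 0.051 with the authors' values.

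On the main scale the LXR and efflux members lay inside 2-fold in both directions, 0 of 5 lower and 0 of 5 higher, with a median of −0.22 that was 0.19 with no filter on dim probes. Abca1, the pump that loads cholesterol onto apolipoprotein A-I, read 1219 and 52.5 on the knockout-labelled array, against 1006 and 42.0 on the wild-type-labelled array, a log2 difference of 0.38 ± 0.03 (SD, n = 2 probes) that became −0.13 on the spike-in scale. Abcg1, which passes cholesterol to HDL particles, differed the other way, with 809 on the knockout-labelled array and 1407 on the wild-type-labelled array, a difference of −0.71 that became −1.23, past 2-fold, on the spike-in scale. The 2 efflux pumps thus lay on opposite sides of 0 on the main scale.

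The LXR genes themselves were close on the arrays. Nr1h3 (LXR alpha) read 302 and 129 on the knockout-labelled array, against 245 and 138 on the wild-type-labelled array, a log2 difference of 0.19 ± 0.28 (SD, n = 2 probes) that was −0.33 on the spike-in scale. Nr1h2 (LXR beta) read 5368 and 61.1 on the knockout-labelled array, against 5877 and 85.5 on the wild-type-labelled array, a log2 difference of −0.22 ± 0.25 (SD, n = 2 probes) that was 0.24 without a filter on dim probes. Mylip, the LXR-induced ligase that sends lipoprotein receptors to degradation, read 392 on the knockout-labelled array and 508 on the wild-type-labelled array, a difference of −0.29.

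The counts depended on the scale in size but the 16 lower members kept their side. Under each of the 8 other settings, from normexp correction to the authors' deposited values, every one of the 16 with a value stayed below 0, and between 12 and 16 of them were still at least 2-fold lower. On the spike-in scale, which moves every gene down by 0.52, 21 members were at least 2-fold lower and the median of all genes was −0.58. That shift is the same for all genes and rests on only 9 spike-in probes well above background on both arrays.

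Promoter sequence was looked up for the members, because SREBP2 works beside NF-Y and Sp1. The part of SREBP2 in the differences was not tested. RefSeq promoter windows (GRCm38.p6, 250 bases before to 50 after the annotated start) were given for 25 of the 31 members, 24 of them measured. The windows of Fdps, Fdft1, Sqle, Stard4, Npc1 and Abcg1 were not used here. The 250 bases before the start are printed 5′ to 3′ on the gene's strand for Hmgcs1, the earliest pathway enzyme measured. They are also printed for Msmo1 and the sensor Insig1, the lowest members on one scale or another, and, as a contrast, for the efflux pump Abca1. Capitals mark CCAAT or its reverse complement ATTGG (the NF-Y box) and TCACNCCAC (a sterol regulatory element). Hmgcs1 lies at chr13:119690101-119690350 (plus strand), Msmo1 at chr8:64733579-64733828 (minus strand), Insig1 at chr5:28071162-28071411 (plus strand) and Abca1 at chr4:53159896-53160145 (minus strand).
Hmgcs1: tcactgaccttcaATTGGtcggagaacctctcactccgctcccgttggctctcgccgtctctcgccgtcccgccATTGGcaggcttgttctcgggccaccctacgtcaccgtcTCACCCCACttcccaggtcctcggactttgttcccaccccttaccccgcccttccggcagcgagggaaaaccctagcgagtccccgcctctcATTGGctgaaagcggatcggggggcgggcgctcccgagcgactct
Msmo1: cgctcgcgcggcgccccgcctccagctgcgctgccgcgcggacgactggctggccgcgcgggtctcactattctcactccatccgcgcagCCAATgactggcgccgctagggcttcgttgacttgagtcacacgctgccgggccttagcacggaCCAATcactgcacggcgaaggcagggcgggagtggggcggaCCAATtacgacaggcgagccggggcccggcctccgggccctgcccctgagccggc
Insig1: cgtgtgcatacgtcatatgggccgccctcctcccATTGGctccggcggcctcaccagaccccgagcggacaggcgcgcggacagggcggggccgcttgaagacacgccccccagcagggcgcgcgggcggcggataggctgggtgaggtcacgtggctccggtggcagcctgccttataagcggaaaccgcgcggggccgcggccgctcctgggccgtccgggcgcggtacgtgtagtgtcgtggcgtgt
Abca1: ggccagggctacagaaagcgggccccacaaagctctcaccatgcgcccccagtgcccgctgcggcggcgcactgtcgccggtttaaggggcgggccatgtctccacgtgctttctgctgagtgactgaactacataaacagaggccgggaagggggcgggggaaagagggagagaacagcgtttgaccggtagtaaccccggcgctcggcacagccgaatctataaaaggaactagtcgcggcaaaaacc

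An NF-Y box, searched as CCAAT on both strands of the whole window, was present for 14 of 14 lower members with a window and for 6 of 10 members inside 2-fold. Over all measured genes with a window it was present for 42.2%, and over all genes at least 2-fold lower for 44.8%. Among the members inside 2-fold, the synthesis genes Ggps1, Sc5d and Tm7sf2 had it, as did Mylip, Npc2 and Srebf2. Abca1, Nr1h2, Nr1h3 and Scap did not. Gene role and the difference between arrays therefore cannot be told apart in this split. The synthesis gene Acat2, which had a window but no probe under its own name, had no NF-Y box. Genes with several annotated starts were counted once, which favours a match, and by promoter the NF-Y box was present in 14 of 19 (73.7%) for the lower members and 6 of 12 for the members inside 2-fold, against 37.2% for all measured genes. An Sp1 box, searched as GGGCGG on both strands, was present for 13 of 14 lower members, 7 of 10 members inside 2-fold, 63.0% of all measured genes and 49.9% of all genes at least 2-fold lower. By promoter the Sp1 box was present in 15 of 19 for the lower members and 8 of 12 for the members inside 2-fold, against 57.1% for all measured genes.

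The sterol regulatory element in the form TCACNCCAC was found for Hmgcs1 alone among the 24 measured members with a window, and for 1.42% of all measured genes. The LXR element was searched only as an exact direct repeat of AGGTCA with 4 bases between. It was found for 0 of the members and in 5 of 32851 promoters of the table. A form this rare cannot tell the members apart, and inexact copies were not searched. A match is a run of letters and not a bound site, and the absence of one says only that these letters are not in this window. Of the 94 matches of these motifs in member windows, 0 pairs of different motifs overlapped.

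**Figure D4:**
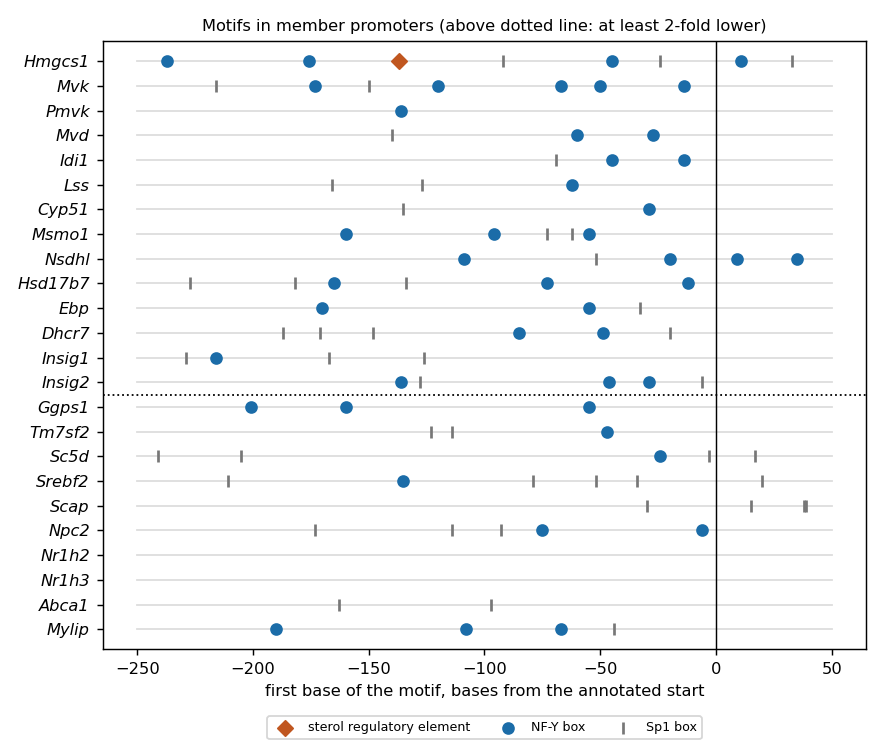
First base of each motif match (circle NF-Y box, grey tick Sp1 box, diamond sterol regulatory element) in bases from the annotated start, for the 24 measured members with a promoter window, genes with several starts drawn on 1 line. The 14 genes above the dotted line were at least 2-fold lower on the P2ry6-/- array and each has a circle, while 6 of the 10 below it do.

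Other genes of cholesterol handling, taken from a list beside the members, were mostly inside 2-fold. With 31 of 32 listed genes measured, 3 (9.68%) were lower by 2-fold or more, 1 (3.23%) was higher by as much and 27 lay between, and the median was −0.22. Soat1, which stores cholesterol as esters, had a level of −0.71 on the knockout-labelled array and 2.21 on the wild-type-labelled array, a log2 difference of −2.92 ± 0.61 (SD, n = 4 probes), which is 7.56-fold lower. Pltp, the phospholipid transfer protein, had a level of 0.23 on the knockout-labelled array and −0.88 on the wild-type-labelled array, 2.17-fold higher, but was inside 2-fold under normexp correction (0.93) and on the spike-in scale (0.60). On the spike-in scale 9 of 31 were lower by 2-fold or more (median −0.73), and 5 were with the brightest probe.

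Fatty acid synthesis genes, which the related factor SREBP1 drives, were also lower in part. With 17 of 18 listed genes measured, 7 (41.2%) were lower by 2-fold or more, 1 was higher by as much and 9 lay between, and the median was −0.75. The elongase Elovl6 differed by −4.59, the desaturase Scd1 by −3.57, the carboxylase Acacb by −2.67 ± 3.85 (SD, n = 2 probes), the synthase Fasn by −1.5, the elongase Elovl5 by −1.33 and malic enzyme, Me1, by −1.26. The desaturase Fads1 differed by 1.23 ± 1.39 (SD, n = 2 probes). For Acacb and Fads1 the spread between probes exceeded the difference, and Fads1 was inside 2-fold under 4 other settings, at 0.25 with the brightest probe. Elovl5 rests on 1 measured probe of 3 and was at −0.16 with no filter on dim probes. Without that filter the list median was −0.47, and on the spike-in scale it was −1.27, with 10 of 17 lower. Srebf1, the gene of SREBP1 and a member of the list beside, differed by 0.26, or −0.26 on the spike-in scale.

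Markers of several cell types also differed between the arrays. Among 11 genes that mark the sebaceous gland, 8 were lower by 2-fold or more, 0 were higher by as much and 3 lay between, and the list had a median of −2.86 and a range from −7.06 (Fa2h) to 0.22 (Pparg). Awat1 (−6.77), Elovl3 (−6.65) and Dgat2l6 (−6.39) followed Fa2h. The median was −1.99 under normexp correction, −1.87 with the brightest probe and −0.76 with a signal of at least 100 on both arrays, a filter that left 6 of these genes, 3 of them lower by 2-fold or more. The summed relative level of the list was 26.9 on the knockout-labelled array and 148 on the wild-type-labelled array. The sterol enzymes on the route to cholesterol spanned a narrower range, −1.69 to −0.67, than these markers did.

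Suprabasal keratinocyte markers were lower as well, 6 of 9 measured (of 10 listed) by at least 2-fold, with a median of −1.37 and a summed relative level of 619 on the knockout-labelled array and 1349 on the wild-type-labelled array. Tgm3 (−2.17 ± 2.18, SD, n = 2 probes), Casp14 (−1.85), Dsg1a (−1.66) and Krt1 (−1.62) led them, and Flg had no probe by this name. On the spike-in scale all 9 were at least 2-fold lower, and 7 were under normexp correction. The count was 5 under quantile normalization, under loess, with the authors' deposited values and with the brightest probe. Proliferation markers had 2 of 7 at least 2-fold lower, Cdc20 (−1.22) and Cdk1 (−1.02), a median of −0.68 and summed relative levels of 24.8 (knockout-labelled) and 42.3 (wild-type-labelled). That count was 6 of 7 on the spike-in scale (median −1.19) and 1 of 7 under normexp correction, where Cdk1 was at −0.83. Macrophage markers went the other way, 7 of 12 measured at least 2-fold higher and 1 lower, with a median of 1.17 and summed relative levels of 31.4 (knockout-labelled) and 14.5 (wild-type-labelled). Cx3cr1 (2.78), Aif1 (1.79), Fcgr1 (1.71) and Mertk (1.35) led them, while Cd163 was not well above background on the knockout-labelled array. The macrophage count was 3 of 12 higher (median 0.65) on the spike-in scale and 4 of 12 (median 0.82) under normexp correction, where Fcgr1 and Mertk were inside 2-fold, as was Mertk on the spike-in scale.

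Basal keratinocyte markers were near the middle, with 1 of 7 at least 2-fold higher, 0 lower and a median of 0.01 that was −0.50 on the spike-in scale, −0.01 under normexp correction and −0.20 with the brightest probe. Fibroblast markers had 1 of 8 at least 2-fold higher (0 under normexp correction and on the spike-in scale), 0 lower and a median of 0.12 that was −0.40 on the spike-in scale and −0.11 with the brightest probe. Of 8 adipocyte markers, Adipoq, Plin1, Retn and Cfd were not well above background on either array, and 2 of the 4 measured were at least 2-fold lower, Plin4 (−3.98) and Cidec (−3.34), with a median of −2.05 over those 4 and −0.13 over all 8 with no filter on dim probes. The part of these cell types in the result was not tested, and in bulk tissue fewer cells of a type and less RNA per cell cannot be told apart.

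**Figure D5:**
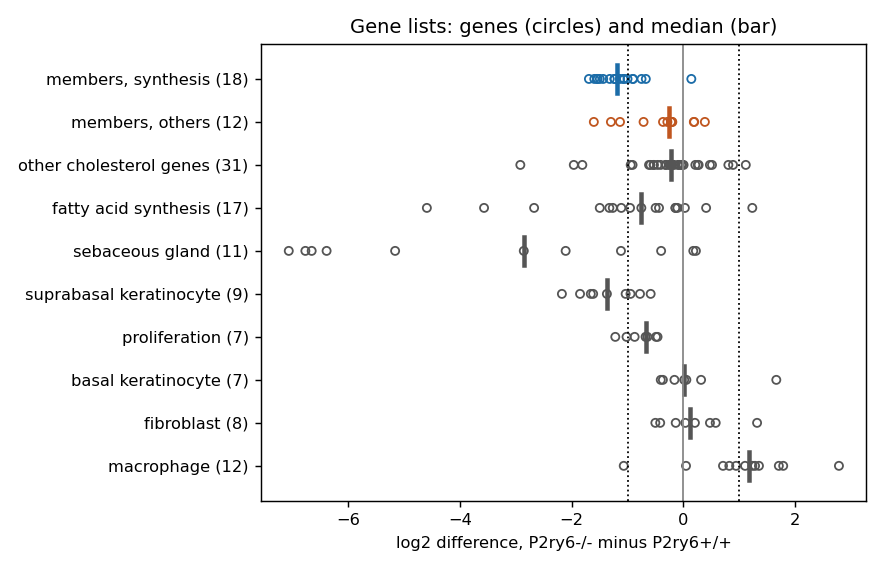
Log2 difference, P2ry6-/- minus P2ry6+/+, of each measured gene (circle) and the list median (bar) for the synthesis members, the other members, 2 related gene lists and 6 marker lists, with the number measured in brackets and dotted lines at 2-fold. The median is −1.18 for the synthesis members, −2.86 for sebaceous gland markers, −1.37 for suprabasal markers and 1.17 for macrophage markers.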

How the data were processed

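Per the file headers and the submitters' processing notes, the authors obtained one intensity per spot from Agilent Feature Extraction 10.7.1.1. That software removed a fitted spatial background, corrected trends over the array surface and put surrogates in place of values near background. Both arrays lay on 1 slide and in 1 scan, per the file headers. The deposited table of log2 values served as an alternative scale. Its columns correlate with the log2 processed signal at r = 0.9997 (knockout-labelled) and 0.9999 (wild-type-labelled) across probes, and no source used here names their normalization.

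Spots marked non-uniform or population outliers were left out (105 knockout-labelled, 102 wild-type-labelled). Spots of a probe were averaged, each array's 75th percentile over non-control probes was subtracted on the log2 scale, and a probe counted as measured if, on both arrays, the scanner software marked the majority of its spots as well above background. Brightness was compared between probes of a gene, to describe them and to pick the probe in the brightest-probe setting. Genes were not ranked by brightness. A summed relative level adds the linear levels of a list's measured genes, so the brightest genes weigh most in it. The 62 member probes kept the gene name given with the array. Other probes were named through their RefSeq accession (GRCm38.p6 gene table, names only). Where no accession matched (23594 probes), the name given with the array was kept. The authors' files place probes on mm9, and no exon or UTR annotation of that build was used here.

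The members, the lists (other cholesterol, fatty acid synthesis, and marker lists of basal, suprabasal, sebaceous, macrophage, fibroblast, adipocyte, T cell, endothelial, neutrophil, skeletal muscle and proliferation genes) and the threshold were chosen with earlier results of these data known. All members are named, of the related lists up to 6 genes past 2-fold in each direction, and of marker lists up to 4 by size. Some genes that this rule takes are counted in their list but not reported by name here. Limma 3.58.1 in R 4.3.3 gave the normexp (offset 50), quantile and cyclic loess alternatives; the scripts (Python 3.11.15) were tested on simulated data. With 1 array per genotype no test was possible.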

Additional observations from a re-analysis of the deposited data

How the results depend on the processing

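Over the members, the count at least 2-fold higher was 0 under all settings. The count at least 2-fold lower ranged from 12 to 21 of 30 against 16. No paired analysis was possible because each genotype has 1 array. The median of the members was −0.90 under quantile normalization and −1.55 on the spike-in scale, against −1.03. The median of the synthesis genes was −1.0 under quantile normalization, −1.02 under loess normalization, −1.03 with the authors' deposited values and −1.70 on the spike-in scale, against −1.18. The median of the other members was −0.77 on the spike-in scale, against −0.26.

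Over all genes, 957 were at least 2-fold higher and 1002 lower. These counts became 368 and 578 under normexp correction, 278 and 3658 on the spike-in scale (median −0.58), 2244 and 2135 with no filter on dim probes (median 0.049, against −0.06), 460 and 658 with a signal of at least 100 on both arrays, and 2572 and 2743 at 1.5-fold. The spike-in scale subtracts 0.52 from every difference, and the cause of the other changes was not tested.

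The limit of these data is 1 array per genotype. Nsdhl, Ebp and Mvk lay nearest the threshold among the lower members, and were at least 2-fold lower in 5, 4 and 4 of the 8 other settings. Stard4 and Sqle were in 7 of 8 each, the exceptions being normexp correction (Stard4 −0.85) and quantile normalization (Sqle −0.98). Insig1 gave no value with a signal of at least 100 on both arrays.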

Other observations

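The 2 probes that carry the name Acat3 differed by −0.89 and −1.34. The second read 65.5 units on the knockout-labelled array and 176 on the wild-type-labelled array.

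The other 4 marker lists are given as values. T cell markers had 1 of 5 measured genes at least 2-fold lower and a median of −0.13, which was 0.01 under normexp correction. Endothelial markers had 0 of 6 past 2-fold and a median of 0.34, neutrophil markers 1 of 6 higher and a median of 0.13, and skeletal muscle markers 1 of 3 measured higher and a median of 0.44. On the spike-in scale the T cell, endothelial, neutrophil and skeletal muscle medians were −0.64, −0.17, −0.38 and −0.08. There the neutrophil count was 0 higher and 1 lower, and under normexp correction the T cell count was 0 lower.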
